A study of Mus musculus with 28 samples.

Results

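The 10 genes described here are immediate early genes: Fos, Fosb, Junb, Egr1, Egr2, Egr3, Arc, Nr4a1, Npas4 and Dusp1. They were chosen by name, through the probe sets that carried 1 of these symbols alone, and all 10 were measured, each by 1 probe set, among 19938 genes (Fos by 10397346, Nr4a1 by 10427035, Npas4 by 10464905 and Dusp1 by 10449284). Total RNA of 129SvEv mouse cells was hybridised to Affymetrix whole-transcript arrays, with 28 arrays in 12 groups. Embryonic stem (ES) cells, neuronal progenitor (NP) cells and cells at the stages labelled TN day 2 and TN day 6 were wild type or Top2β knockout. For every genotype there were 3 arrays of TN day 6 and 2 of every other stage. Cells at TN day 5 were given the solvent DMSO or ICRF-193, an inhibitor of topoisomerase II (n = 2 arrays per group). Glutamatergic neurons taken from E16.5 cortex were likewise given DMSO or the inhibitor (n = 3 arrays per group).

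The labels do not spell out TN, do not name the genotype of the DMSO and ICRF-193 samples, and do not say how the knockout was made or from how many clones. A single treatment note stands on all samples: ICRF-193 at 50 µM or DMSO, renewed every 24 h, beginning on TN day 2 and ending on TN day 5. Whether the cortical neurons followed those days is not stated. Replicates are not described as separate cultures or animals. Each p-value therefore sets a difference of group means only against how far arrays of the same group lie apart. That spread is estimated for each gene over its 12 groups and moderated across genes.

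Immediate early genes are transcribed within minutes of a stimulus, without new protein synthesis, from promoters where kinase-activated factors such as CREB, SRF and MEF2 are already bound or quickly bind. In neurons the stimulus is calcium entry through NMDA receptors and voltage-gated channels. In dividing cells, growth factors induce many of the same genes. Most encode transcription factors that switch on a later set of genes, and some encode brakes on the signal itself. Topoisomerase IIβ, encoded by Top2b, is the form of the enzyme kept by neurons after cell division. ICRF-193 acts on topoisomerase II by locking it closed on DNA, and it does not distinguish the α form from the β form.

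The promoters of 7 of the 10 genes were found in RefSeq (GRCm38.p6). The 250 bases before each start site were searched on both strands. The short CRE, TGACG, is the core that CREB-family factors read, and it was present in all 7 genes, against 17.8% of 32851 promoters; for Egr2 it was in 3 of the gene's windows. The full CRE, TGACGTCA, which contains the short one on each strand, occurred in Dusp1 alone among the 7 (1.55% of promoters). The promoters below are shown because these 4 genes, Fos, Nr4a1, Npas4 and Dusp1, carry the differences described further on, and Fosb because it is the close relative of Fos whose knockout and drug differences did not pass in the fit to all arrays. Each runs 5′ to 3′ on the gene's strand and ends at the base before the start site, and capitals mark the short CRE on either strand.
Fos, chr12:85473750-85473889, plus strand: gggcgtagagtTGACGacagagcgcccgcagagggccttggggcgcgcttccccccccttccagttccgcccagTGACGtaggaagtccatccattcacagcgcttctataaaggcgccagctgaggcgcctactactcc
Nr4a1, chr15:101266606-101266845, plus strand: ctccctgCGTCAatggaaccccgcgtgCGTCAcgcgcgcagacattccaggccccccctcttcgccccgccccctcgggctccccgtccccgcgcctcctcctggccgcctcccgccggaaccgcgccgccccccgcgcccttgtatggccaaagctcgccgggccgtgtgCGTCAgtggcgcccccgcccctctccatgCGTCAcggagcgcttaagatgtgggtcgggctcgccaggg
Npas4, chr19:4989972-4990161, minus strand: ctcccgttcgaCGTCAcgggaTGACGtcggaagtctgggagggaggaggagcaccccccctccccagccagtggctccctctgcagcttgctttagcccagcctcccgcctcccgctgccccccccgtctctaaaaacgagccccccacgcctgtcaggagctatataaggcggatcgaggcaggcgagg
Dusp1, chr17:26508473-26508672, minus strand: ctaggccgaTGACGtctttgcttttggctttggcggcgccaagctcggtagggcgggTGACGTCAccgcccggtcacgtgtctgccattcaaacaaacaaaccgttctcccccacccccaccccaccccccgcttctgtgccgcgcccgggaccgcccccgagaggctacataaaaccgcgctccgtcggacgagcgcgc
Fosb, chr7:19310046-19310165, minus strand: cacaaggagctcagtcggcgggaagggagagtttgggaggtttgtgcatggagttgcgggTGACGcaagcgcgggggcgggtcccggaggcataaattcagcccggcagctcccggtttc

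Nr4a1 had 4 short CREs, a number reached or passed by 0.137% of promoters. Dusp1 had 3, of which a pair overlaps within its full CRE. Fos and Npas4 had 2 each, and Egr2, which passed in no drug or knockout comparison, had 2 in each of its windows that held any. That number was reached or passed by 3.9% of promoters. Fosb and Junb had 1 each. In Npas4 the pair lay 179 and 169 bases before the start site, in opposite orientation. In Fos the short CREs lay 129 and 66 bases before the start, and the letters TATAAA (12.4% of promoters) began 33 bases before it. The G-rich EGR site GCGGGGGCG was in Fosb and Nr4a1 (2.57% of promoters), and a CArG box, the element SRF reads, was in Egr2 (1.47%). The EGR site GCGTGGGCG (0.536% of promoters) and the AP-1 site TGANTCA (6.75%) had no match in the 7 genes. Such matches describe letters in these windows and were not tested for binding.

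As a check of the labels, Top2b was lower in knockout than in wild-type cells by 1.29 on the log2 scale in ES cells, and the log2 difference was -2.31 in NP cells, -2.41 at TN day 2 and -2.31 at TN day 6, all past an adjusted p of 0.05 with no overlap of arrays. Whether its probe set lies in the deleted part is not known. Array medians lay between 6.12 and 6.43, and arrays of a group correlated at 0.990 to 0.997, apart from the knockout ES pair at 0.967. In that pair replicate 1 was above replicate 2 for 9 of the 10 genes, all but Arc. The mean log2 level of 10 pan-neuronal markers was 7.26 to 7.38 in wild-type ES cells, 11.35 to 11.39 in wild-type cells at TN day 6 and 11.46 to 11.50 in cortical neurons with DMSO. That of 6 glutamatergic markers was 9.46 to 9.60 in cortical neurons with DMSO, 7.03 to 7.14 with DMSO at TN day 5 and 7.18 to 7.31 in wild-type cells at TN day 6. Cells at TN day 5 and cortical neurons were measured in separate groups with no shared control.

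With ICRF-193, 3 of the 10 genes fell at TN day 5 and 3 rose in cortical neurons, and Fos and Npas4 were in both sets with opposite directions. At TN day 5, Fos, Nr4a1 and Npas4 fell. In cortical neurons, Npas4, Fos and Dusp1 rose, and Nr4a1 did not pass the test. Across all genes, 8.89% were called in either direction at TN day 5 (6.37% lower) and 23.4% in cortical neurons (9.72% higher). The comparisons share no array. A call here is an adjusted p under 0.05 in limma's moderated test, two-sided, with Benjamini-Hochberg adjustment over all 19938 genes, and errors are standard errors (SE) of that fit.

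**Figure D1:**
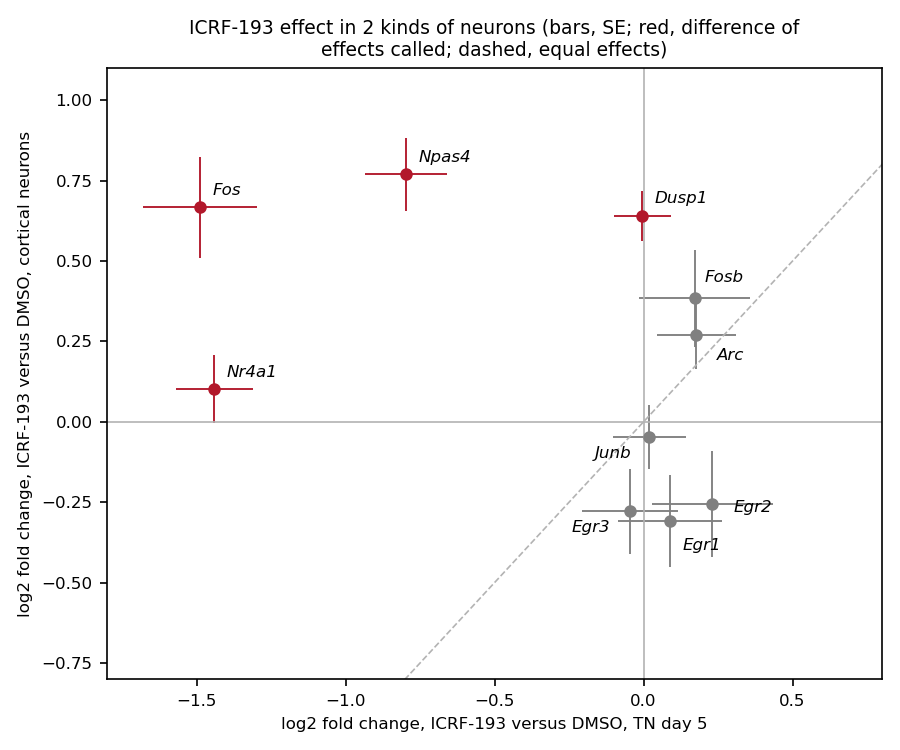
The log2 fold change of each gene with ICRF-193 against DMSO at TN day 5 (horizontal axis, n = 2 against 2) and in cortical neurons (vertical axis, n = 3 against 3), with SE bars; the dashed line marks equal effects. Fos and Npas4 sit in the upper left, lower at TN day 5 and higher in cortical neurons, and the 4 red genes, Fos, Npas4, Nr4a1 and Dusp1, are those whose effects differed by test.

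Fos encodes the AP-1 subunit whose mRNA is the usual marker of recently active neurons. Its log2 values at TN day 5 were 7.74 and 7.12 with DMSO, against 6.12 and 5.77 with the inhibitor. The DMSO arrays were the highest of all 28, and both ICRF-193 arrays lay below them. Fos fell by 1.49 ± 0.19 (SE, n = 2 and 2) on the log2 scale, a 2.81-fold difference (limma adjusted p = 1.56e-05). In cortical neurons the values were 6.04, 5.87 and 5.97 with DMSO, against 6.58, 6.68 and 6.62 with the inhibitor. Every ICRF-193 array was above every DMSO array, and the log2 difference was 0.67 ± 0.16 (SE, n = 3 and 3, 1.59-fold, limma adjusted p = 0.00369).

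Npas4 encodes a neuron-specific bHLH-PAS factor that calcium entry induces and growth factors do not. It measured 7.42 and 7.31 with DMSO at TN day 5, against 6.53 and 6.60 with the inhibitor. It fell by 0.80 ± 0.14 (SE, 1.74-fold, limma adjusted p = 0.000593). In cortical neurons it measured 5.46, 5.60 and 5.86 with DMSO, against 6.25, 6.47 and 6.51 with the inhibitor, again without overlap. The rise was 0.77 ± 0.11 (SE, 1.70-fold, limma adjusted p = 2.76e-05). The cortical ICRF-193 arrays stayed below both ICRF-193 arrays of TN day 5. The mean of Npas4 in cortical neurons with DMSO was 5.64, against 5.63 in wild-type ES cells, and that of Fos was 5.96 against 5.98. Both genes lay below the median gene on average over the arrays, and their distance from background is not known.

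Nr4a1 encodes Nur77, an orphan nuclear receptor that restrains synapse number and energy metabolism in active neurons. At TN day 5 it measured 8.69 and 8.39 with DMSO, against 7.25 and 6.95 with the inhibitor. It fell by 1.44 ± 0.13 (SE, 2.71-fold, limma adjusted p = 9.8e-08). In cortical neurons the DMSO arrays read 6.80, 6.76 and 6.86 and the ICRF-193 arrays 6.94, 6.79 and 6.97. These groups overlap, and the difference of 0.10 had a 95% interval of -0.12 to 0.32 (limma adjusted p = 0.522).

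Dusp1 encodes a phosphatase that removes the activating phosphates from MAP kinases and so ends the signal that induces the other genes. It measured 9.83 and 9.64 with DMSO at TN day 5, against 9.75 and 9.72 with the inhibitor, which overlap. In cortical neurons it measured 8.88, 9.01 and 8.93 with DMSO, the lowest of all 12 groups, and 9.53, 9.64 and 9.58 with ICRF-193. There it rose by 0.64 ± 0.078 on the log2 scale (SE, 1.56-fold, limma adjusted p = 2.4e-06).

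The difference between the 2 ICRF-193 effects was itself tested as an interaction, which called 4.37% of all genes and 4 of the 10. As cortical minus TN day 5, on the log2 scale, it was 2.16 ± 0.25 for Fos (SE, limma adjusted p = 6.34e-06), 1.57 ± 0.18 for Npas4 (limma adjusted p = 5.39e-06), 1.54 ± 0.17 for Nr4a1 (limma adjusted p = 2.86e-06) and 0.64 ± 0.12 for Dusp1 (limma adjusted p = 0.00221). All 4 were called again without any single array of these groups. Neuron source, experiment and perhaps treatment days differ together between the pairs and cannot be told apart.

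The other 6 genes did not pass in either drug comparison. Fosb, a second Fos-family subunit, measured 6.54 and 6.40 with DMSO, against 6.65 and 6.63 with the inhibitor at TN day 5. In cortical neurons it measured 5.77, 6.05 and 6.10 with DMSO, against 6.36, 6.36 and 6.34 with the inhibitor. These cortical groups did not overlap, with a log2 difference of 0.38 and a 95% interval of 0.07 to 0.70 (limma adjusted p = 0.0716). Arc, whose protein trims AMPA receptors from synapses, measured 6.47 and 6.49 with DMSO at TN day 5, and 6.64 and 6.67 after the inhibitor. It had cortical values of 6.37, 6.21 and 6.22 with DMSO, against 6.50, 6.57 and 6.54 with the inhibitor (log2 difference 0.27, limma adjusted p = 0.0716). Junb, an AP-1 partner of Fos, had groups that overlapped in both drug comparisons.

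The EGR genes encode zinc-finger factors that bind GC-rich sites and carry the early signal to later targets. In cortical neurons the log2 difference was -0.31 for Egr1 (limma adjusted p = 0.124) and -0.28 for Egr3 (limma adjusted p = 0.13). Egr1 measured 6.63, 6.86 and 6.69 with DMSO, against 6.45, 6.26 and 6.54 with the inhibitor. Egr3 measured 7.60, 7.46 and 7.49 with DMSO, against 7.22, 7.34 and 7.15 with the inhibitor. Both genes had groups apart, with ICRF-193 lower, opposite in sign to Fos and Npas4 in the same arrays. Egr2 overlapped, at 5.49, 5.60 and 6.08 against 5.66, 5.28 and 5.47. Centring each array on its median brought Egr1 and Egr3 past the threshold. Array weights, and a fit to these 6 arrays alone, each called Egr1 and Egr3, lower, and Fosb and Arc, higher, beside Fos, Npas4 and Dusp1. Calls over all genes were not counted in these alternative fits. The share given above for cortical neurons is that of the unweighted fit to all arrays. In cortical neurons 7 of the 10 genes had groups that did not overlap, against 53.3% of all genes, and at TN day 5 it was 5 of 10 against 46.1%.

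**Figure D2:**
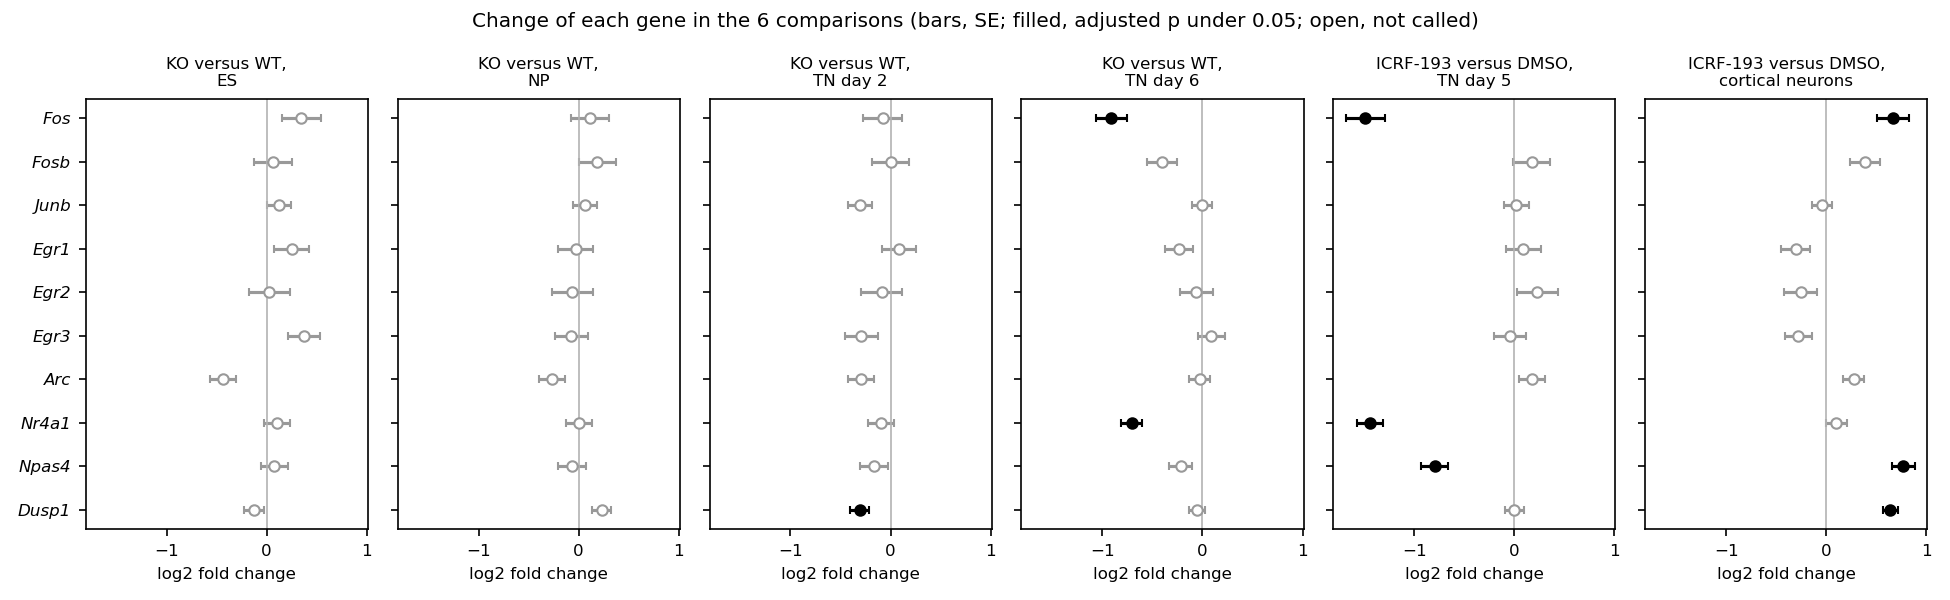
The log2 fold change of each of the 10 genes (horizontal axis) in the 6 comparisons of knockout with wild type or ICRF-193 with DMSO, 1 panel each, with SE bars; filled points passed an adjusted p of 0.05. No gene is filled at the ES and NP stages, Dusp1 alone at TN day 2, Fos and Nr4a1 at TN day 6, and 3 genes in each drug comparison.

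Cell type markers moved with these results. Of 10 pan-neuronal markers, 2 fell and 0 rose at TN day 5 with ICRF-193, Syt1 by 1.58. Their mean log2 level was 11.22 to 11.31 with DMSO and 10.98 to 11.02 with ICRF-193. At TN day 5 the mean log2 level of 8 progenitor markers was 7.86 to 8.53 with DMSO and 6.85 to 6.92 with ICRF-193, and 5 of the 8 fell, Fabp7, a fatty acid carrier of radial glia, by 5.23. Of 7 astrocyte markers, 2 fell (6.25 to 6.67 against 5.50 to 5.84). The mean over 9 mesenchymal markers was 7.65 to 8.53 against 7.15 to 7.23, and 1 of the 9, Dcn, passed, falling by 1.76, a call lost without any of the 4 arrays. In cortical neurons 5 of 8 progenitor and 5 of 7 astrocyte markers fell (astrocyte mean 8.38 to 8.55 against 6.89 to 6.93). Of the 10 pan-neuronal markers, 4 fell, Syt1 among them, and 1 rose there (mean 11.46 to 11.50 against 11.105 to 11.138). Of 6 glutamatergic markers 3 rose and 1 fell, and of 6 GABAergic markers 2 rose and 0 fell. In that comparison 13.7% of all genes were lower and 9.72% higher. All 7 microglia markers rose there (6.62 to 6.71 against 7.39 to 7.50). In these bulk samples fewer cells of a type and less RNA per cell cannot be told apart, and the part of these cell types in the changes of the 10 genes was not tested.

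In Top2β knockout cells Fos and Nr4a1 fell at TN day 6, and the other 8 genes did not pass at that stage, where 10.2% of all genes were called (4.8% lower). Fos measured 6.53, 6.82 and 6.54 in the wild type, against 5.76, 5.75 and 5.64 in the knockout. The knockout arrays were all below the wild-type arrays, and their mean was the lowest Fos level of the 12 groups. Fos fell by 0.91 ± 0.16 (SE, n = 3 and 3, 1.88-fold, limma adjusted p = 0.00036). Nr4a1 measured 7.54, 7.63 and 7.55 in the wild type, against 6.82, 6.99 and 6.79 in the knockout. It fell by 0.71 ± 0.11 on the log2 scale (SE, 1.63-fold, limma adjusted p = 7.81e-05). Both calls held without any single array of the 6.

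Fosb measured 6.47, 6.52 and 6.63 in the wild type, against 6.13, 6.06 and 6.20 in the knockout at TN day 6. The groups were apart, and the log2 difference was -0.41 ± 0.15 (SE, 95% interval -0.72 to -0.09, limma adjusted p = 0.107). Fosb was called there with array weights and in a fit to these 6 arrays alone. Npas4 measured 6.22, 6.14 and 6.16 in the wild type, against 5.88, 6.12 and 5.87 in the knockout, also apart, with a log2 difference of -0.22 (limma adjusted p = 0.3). Groups were apart for 4 of the 10 genes, against 32.8% of all genes. The median of the 10 genes was -0.14, against 0.00 for all genes. At TN day 6, 5 of 8 progenitor markers rose in the knockout, Pax6 by 2.32 on the log2 scale. Of 10 pan-neuronal markers, 1 fell and 0 rose, Syt1 by 0.79 (mean level 11.35 to 11.39 in the wild type, against 11.12 to 11.17). Of 6 glutamatergic markers, 1 fell and 0 rose, Slc17a6 by 1.96 (7.18 to 7.31 against 6.74 to 6.90). The mesenchymal mean was 6.65 to 6.76 in wild-type and 6.99 to 7.17 in knockout cells, with 0 of 9 markers called. Their part in the fall of Fos and Nr4a1 was not tested.

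Before TN day 6, Dusp1 at TN day 2 was the single call among the 10 genes. In ES and NP cells 0 of the 10 were called, where 0.351% and 0.627% of all genes were by limma. Egr3 and Arc in ES cells and Dusp1 in NP cells had an unadjusted limma p under 0.05. The share of all genes at that looser threshold was not counted, and the shares above do not apply to it. Groups were apart for 4 and 3 of the 10 genes, against 32.5% and 38.1% of all genes. At TN day 2, where 11.5% of all genes were called (5.97% lower), Dusp1 passed. It measured 10.09 and 10.04 in the wild type, against 9.72 and 9.80 in the knockout and fell by 0.31 ± 0.095 (SE, n = 2 and 2, limma adjusted p = 0.0399). Leaving out any 1 of these 4 arrays ended the call, and a fit to them alone gave an adjusted p of 0.216. Groups were apart for 5 of the 10 genes there, against 51.7% of all genes. In the same arrays 7 of 10 neuron markers fell (mean log2 level 10.94 to 10.998 in the wild type, against 10.29 to 10.56), and 3 of 9 mesenchymal markers rose. The mesenchymal mean was 7.25 and 9.19 in the wild type, whose arrays stood apart, and 9.12 and 9.43 in the knockout. Of 8 endothelial markers 1 rose, Kdr, a VEGF receptor, by 3.51. Their part in the fall of Dusp1 was not tested. At the same stage Fos overlapped between genotypes, at 6.54 and 6.61 in the wild type, against 6.37 and 6.62 in the knockout. Nr4a1 also overlapped, at 6.72 and 6.65 against 6.45 and 6.73.

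The difference between the knockout effects in NP and ES cells was called for 0 of the 10 genes (0.256% of all genes). That of Dusp1 was 0.36, with a 95% interval of 0.08 to 0.64. Egr3 was called without knockout ES replicate 2, a fit that leaves 1 knockout ES array. Between TN day 2 and NP cells Dusp1 was called, at -0.54 ± 0.13 (SE, limma adjusted p = 0.0346, 2.71% of all genes called). That call was lost with quantile normalization (adjusted p = 0.0538), and without wild-type NP replicate 2, wild-type TN day 2 replicate 1 or any of the 4 knockout arrays (adjusted p up to 0.161). The knockout effect on Nr4a1 was lower at TN day 6 than at TN day 2 by a difference of -0.61 ± 0.17 on the log2 scale (SE, limma adjusted p = 0.0374), where the interaction called 4.8% of all genes. For Fos that difference was -0.83 ± 0.25 (SE, limma adjusted p = 0.0559). The interaction of Nr4a1 lost its call without either wild-type array of TN day 2 or knockout replicate 2, and without any of 5 of the 6 arrays of TN day 6. In ES cells, Fos was 6.06 and 5.90 in the wild type, against 6.71 and 5.95 in the knockout, and Egr3 was 6.97 and 7.01 against 7.71 and 7.01. For both genes the first knockout array alone was high. Arc was 7.58 and 7.19 against 6.75 and 7.14. That array also stood apart in cell type markers. The mesenchymal mean was 10.001 in it and 7.88 in the second knockout array (8.10 to 8.12 in the wild type), the pluripotency mean 9.95 and 10.99 (10.93 to 11.06), and the endothelial mean 7.36 and 6.40 (6.53 to 6.63). Leaving out the second knockout array leaves that deviating array alone as the knockout group. The calls of Fos, Egr3 and Arc in that fit therefore rest on 1 knockout array, and calls over all genes were not counted for it.

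**Figure D3:**
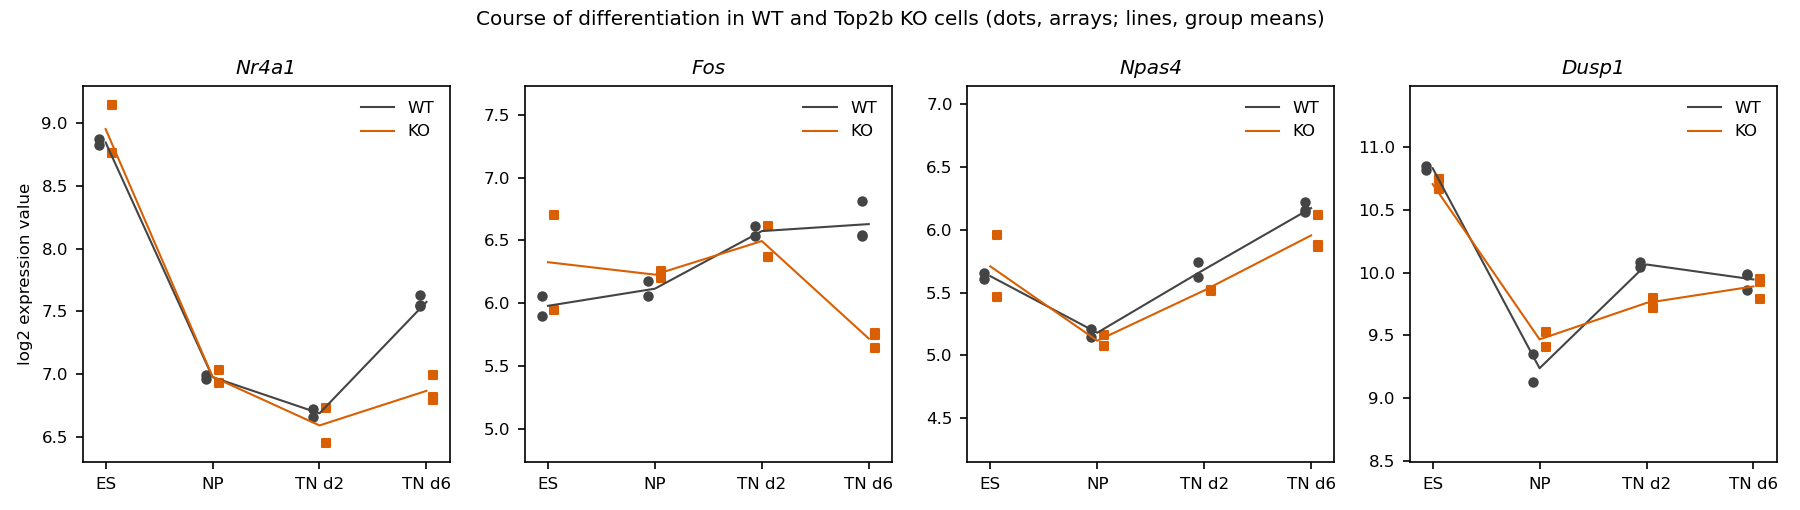
Log2 expression values (vertical axis, the same span in each panel) of Nr4a1, Fos, Npas4 and Dusp1 at the ES, NP, TN day 2 and TN day 6 stages, as points for arrays and lines through group means, in wild-type and Top2β knockout cells. The genotypes part for Nr4a1 and Fos at TN day 6. At the NP stage their arrays overlap for Nr4a1 and Npas4 and lie narrowly apart, uncalled, for Fos and Dusp1.

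The largest movement of the set in wild-type cells was the step from ES to NP cells, at which 8 of the 10 genes fell, against 24.5% of all genes lower and 46.3% called in either direction. Nr4a1 measured 8.82 and 8.87 in ES cells and 6.99 and 6.96 in NP cells, and its log2 difference was -1.87 (limma adjusted p = 1.89e-10). Dusp1 went from 10.85 and 10.82 to 9.35 and 9.13, a log2 difference of -1.59. Junb went from 6.80 and 6.76 to 5.74 and 5.80 (-1.01), and Arc from 7.58 and 7.19 to 6.32 and 6.49 (-0.98). Egr1 differed by -0.70, Egr2 by -0.54, Fosb by -0.47 and Npas4 by -0.45. Junb, Arc, Egr1, Egr2, Fosb and Npas4 lay below the median gene on average over the arrays, and their distance from background is not known. Fos and Egr3 did not pass. The call of Egr2 was lost without any of the 4 arrays. That of Fosb was lost with quantile normalization, with median centring, and without ES replicate 2 or NP replicate 1, and that of Npas4 without replicate 1 of either stage. Groups were apart for 9 of the 10 genes, against 71.7% of all genes. The count was 5 without replicate 1 of the wild-type NP cells, leaving Junb, Egr1, Arc, Nr4a1 and Dusp1.

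From NP cells to TN day 2, Dusp1 rose by 0.83 and Npas4 by 0.50 on the log2 scale, while Egr1 fell by 0.49, against 48.2% of all genes called (21.6% higher, 26.6% lower), and 6 of the 10 genes had groups apart, against 68.9%. The call of Egr1 was lost with array weights and without either wild-type NP array or TN day 2 replicate 1 (adjusted p up to 0.185). From TN day 2 to TN day 6, Nr4a1 rose by 0.89 and Npas4 by 0.49, against 28.5% of all genes called (16.7% higher), and 5 of the 10 had groups apart, against 57.0%. Npas4 thus passed at both neuronal steps, from 5.15 and 5.21 in NP cells through 5.74 and 5.62 at TN day 2 to 6.22, 6.14 and 6.16 at TN day 6. Without wild-type replicate 2 of TN day 2, the second of these steps had an adjusted p of 0.0637. Fos measured 6.05 and 6.18 in NP cells and passed at neither step. Neighbouring steps share the arrays of the stage between them.

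**Figure D4:**
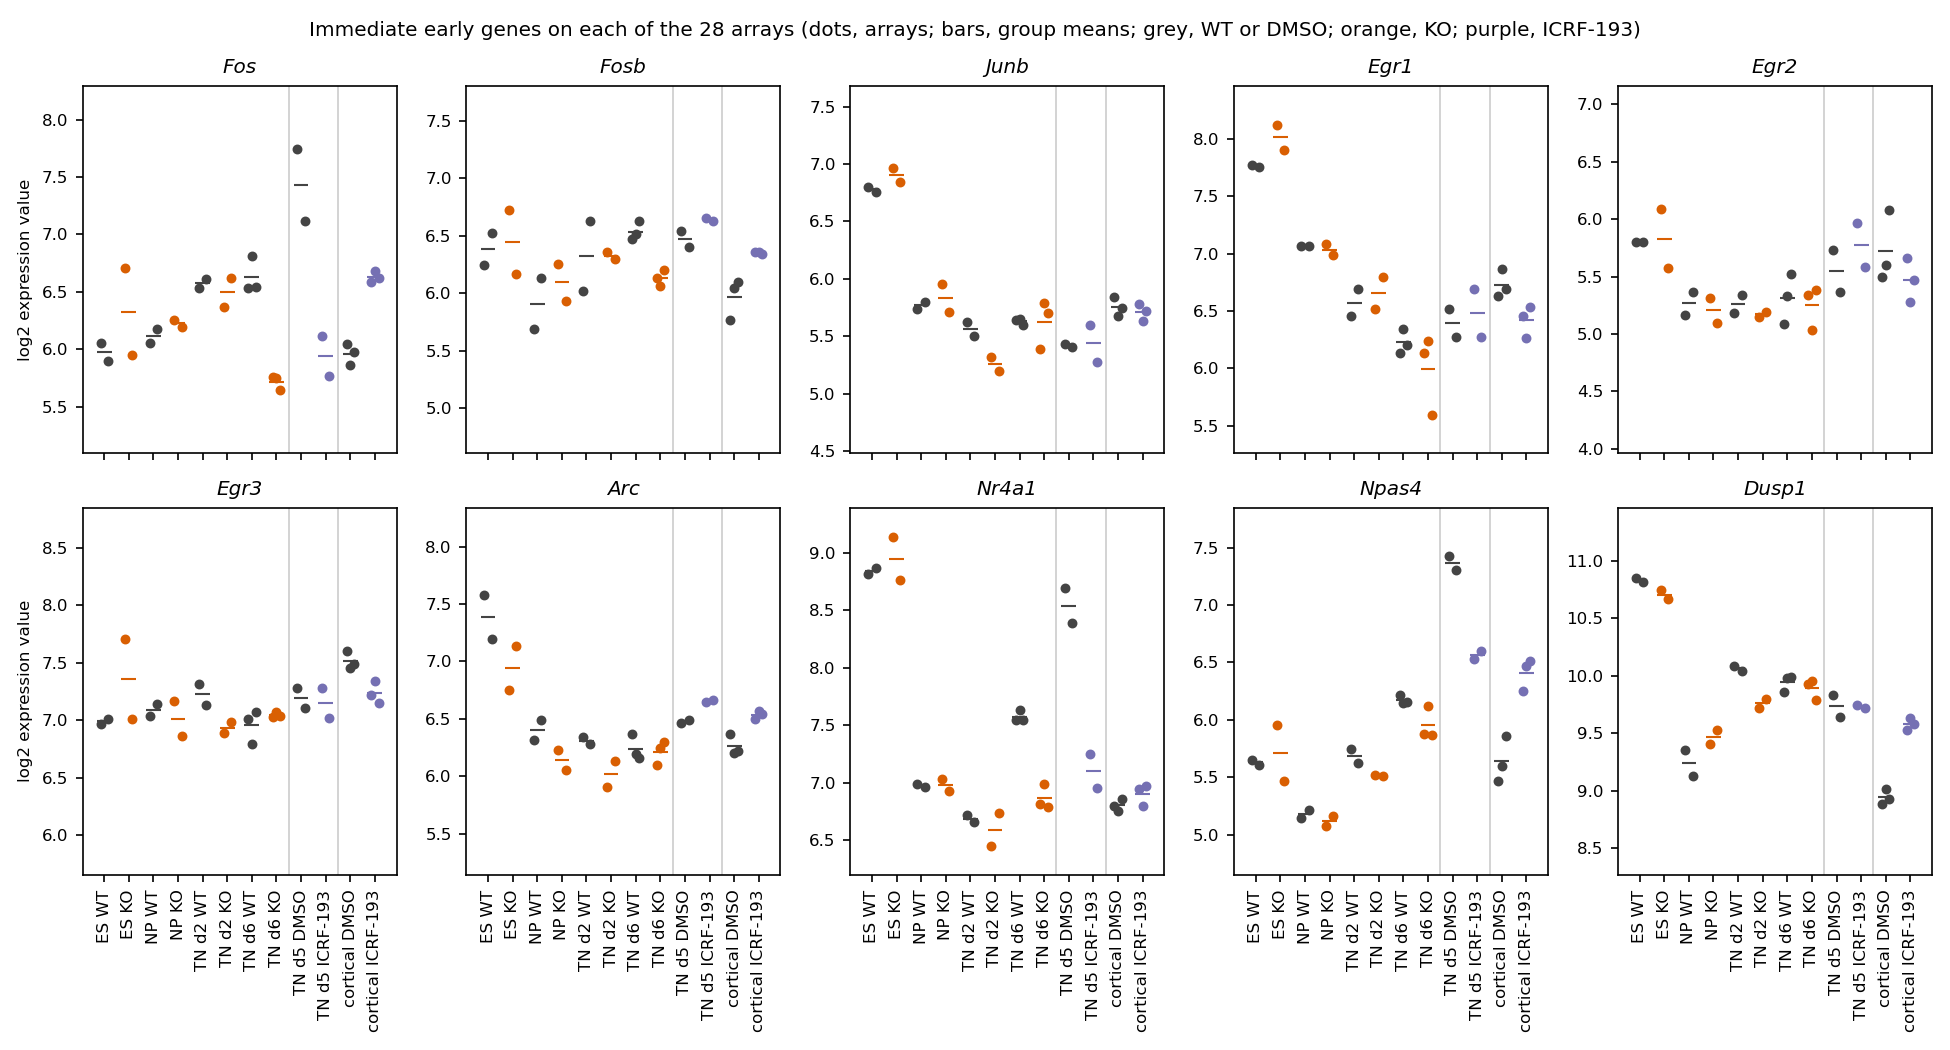
The log2 value of each of the 10 genes (vertical axis, the same span in each panel) on each of the 28 arrays, with bars at the means of the 12 groups. Fos and Npas4 stand highest with DMSO at TN day 5, Nr4a1 is high in ES cells and with DMSO at TN day 5, and Junb, Egr1, Arc and Dusp1 are highest in ES cells.

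Over the 12 groups the 10 genes did not share a single pattern. Fos had its highest group mean with DMSO at TN day 5, 7.43, which was 0.80 above the next group, and the groups ranked next to each other from the wild-type TN day 6 mean of 6.63 down to the knockout ES mean of 6.33 all overlapped. Npas4 had its highest mean with DMSO at TN day 5 as well, 7.36, and its lowest in knockout NP cells, 5.12. Its next ranks, ICRF-193 at TN day 5, ICRF-193 in cortical neurons and wild type at TN day 6, were each apart from their neighbours. Nr4a1 had its highest mean in knockout ES cells, 8.95, overlapping wild-type ES cells. DMSO at TN day 5 followed at 8.54 and wild type at TN day 6 at 7.57, each apart from its neighbours, and the lowest was knockout TN day 2 at 6.59.

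Egr1 (8.01), Egr2 (5.83) and Junb (6.90) also had their highest group means in knockout ES cells, and Arc (7.39) and Dusp1 (10.83) had theirs in wild-type ES cells. Egr3 was highest in cortical neurons with DMSO (7.52), and Fosb with ICRF-193 at TN day 5 (6.64). The span between the highest and the lowest group mean ran from 0.58 for Egr3 to 2.36 for Nr4a1. Its median over the 10 genes was 1.68, against 1.12 over all genes, while the residual SD within groups was 0.153 against 0.146. Across the 12 group means, Nr4a1 correlated with the mean of the other 9 at r = 0.912 and Arc at 0.814, while Fos did at 0.118, Egr3 at 0.123 and Npas4 at 0.145. Fos and Npas4 correlated with each other at 0.581, and Junb with Egr1 at 0.873. These are descriptions over groups, several of which share a stage.

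The DMSO controls of the drug experiments differed from each other. In cortical neurons against TN day 5, Nr4a1 was lower by a log2 difference of -1.74, Npas4 by -1.72, Fos by -1.47, Dusp1 by -0.79 and Fosb by -0.50, and Junb was higher by 0.34. This gave 6 of 10 called, against 44.8% of all genes (24.4% higher, 20.4% lower), with groups apart for 9 of 10, against 67.4%. The call of Junb was lost without either DMSO array of TN day 5 or cortical DMSO replicate 1. That of Fosb was lost with quantile normalization, with median centring, and without DMSO replicate 1 of TN day 5 or of the cortical neurons. Cell type markers differed between the same arrays: in cortical neurons 7 of 9 mesenchymal markers were lower (5.75 to 5.85 against 7.65 to 8.53), and 6 of 7 astrocyte (8.38 to 8.55 against 6.25 to 6.67), 6 of 6 GABAergic and 5 of 7 microglia markers were higher. Their part was not tested. So the 3 genes that ICRF-193 lowered at TN day 5 had higher values with DMSO there than with DMSO in cortical neurons. These arrays are vehicle controls and give no level from before treatment. With ICRF-193, Fos read 6.12 and 5.77 at TN day 5, which spans the cortical DMSO values of 6.04, 5.87 and 5.97. Nr4a1, at 7.25 and 6.95, and Npas4, at 6.53 and 6.60, stayed above every cortical DMSO array (6.76 to 6.86 and 5.46 to 5.86). Experiment and neuron source cannot be told apart in this comparison, which shares its DMSO arrays with both drug comparisons.

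Around the 10 genes, other parts of the activity response were read from lists grouped by role. Of all genes, the share called higher and lower was 0.0853% and 0.266% in knockout ES cells, 0.381% and 0.246% in NP cells, 5.49% and 5.97% at TN day 2, and 5.38% and 4.8% at TN day 6. With ICRF-193 it was 2.51% and 6.37% at TN day 5, and 9.72% and 13.7% in cortical neurons. At the TN stages and in cortical neurons a count of 1 gene in a list of this size is near these shares. Of 18 other early transcription factors, 4 rose and 0 fell in knockout cells at TN day 2. Myc rose by 1.26 and Nr4a3, a paralog of Nr4a1, by 1.20 on the log2 scale, in the arrays in which 7 of 10 neuron markers fell and 3 of 9 mesenchymal markers rose, a part that was not tested. Myc had an adjusted p of 0.0584 in a fit to the 4 arrays alone. At TN day 6 the paralog Nr4a2 rose by 0.98 in the same arrays in which Nr4a1 fell, and 2 of 18 rose and 0 fell. At TN day 5 with ICRF-193, 1 of 18 rose and 2 fell. Nr4a2 was higher by 0.94 there, a call lost without either DMSO array or ICRF-193 replicate 2, and Nr4a3 differed by -0.80, lost without DMSO replicate 2 or ICRF-193 replicate 1. In cortical neurons 1 rose, Jun by 0.79, and 3 fell, among them Nr4a2 by 0.97 and Myc by 0.89. Jun, the AP-1 partner of Fos, thus rose where Fos rose.

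Among 16 feedback regulators of the MAP kinase signal and of early mRNA, 0 rose and 6 fell at TN day 5 with ICRF-193. The median of the list was -0.33, against 0.02 for all genes. Dusp6, the phosphatase specific for ERK, fell by 0.95, and Gadd45g, a stress-response gene, by 1.36. In cortical neurons 0 rose and 4 fell, where Dusp6 fell by 0.43 and Spry4, an inhibitor of receptor tyrosine kinase signalling, by 1.17, in the arrays in which Dusp1 rose. In knockout cells at TN day 6, 2 rose and 2 fell: Zfp36l1, which targets mRNAs for decay, rose by 1.31, and Spry4 fell by 0.84. At TN day 2, 3 rose and 1 fell, with Gadd45b higher by 1.18 and Zfp36l1 by 1.12. In NP cells 1 fell, Gadd45b, by 0.90, a call lost without any of the 4 arrays. Gadd45g lost its call at TN day 5 without DMSO replicate 2 or ICRF-193 replicate 1.

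Late activity genes, which follow the early factors, split in each neuronal comparison. At TN day 6, 1 of 16 rose and 5 fell in the knockout. Nrn1, encoding the surface protein neuritin, fell by 2.89, from a group mean of 8.98 to 6.09, and Vgf, encoding a secreted neuropeptide precursor, by 0.78, while the granin gene Scg2 rose by 0.71. At TN day 5 with ICRF-193, 1 rose and 3 fell, with a log2 difference of -1.05 for Vgf and -1.39 for Nrn1, whose call was lost without either DMSO array or ICRF-193 replicate 2. In cortical neurons 6 rose and 3 fell. Rasgrp1, a calcium-responsive activator of Ras, rose by 2.43 and Scg2 by 2.07, and Inhba, an activin subunit, fell by 2.96. At TN day 2, 1 rose and 3 fell, and in ES cells 1 fell, Pcsk1, by 0.97.

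Upstream of the early genes, the NMDA receptor subunit gene Grin2b was lower in each of the 4 neuronal comparisons. Its log2 difference was -0.81 at TN day 2, -1.02 at TN day 6, -1.54 at TN day 5 with ICRF-193 and -2.99 in cortical neurons with ICRF-193. Of 23 upstream receptors, channels, kinases and factors, 0 rose and 3 fell at TN day 5. In cortical neurons 1 rose and 9 fell, where 13.7% of all genes were lower, including the factor Mef2c by 2.04 and Grin2a by 1.94, in the arrays in which Fos, Npas4 and Dusp1 rose. At TN day 6, 0 rose and 2 fell, and at TN day 2, 2 rose and 1 fell, Grin2b, whose call was lost without knockout replicate 2. In NP cells 1 fell, Camk2b, by 0.65, lost without wild-type replicate 1 or knockout replicate 1. Of 7 heat shock genes, 0 rose and 1 fell at TN day 5, 1 rose and 1 fell in cortical neurons and at TN day 6, and 2 rose at TN day 2.

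**Figure D5:**
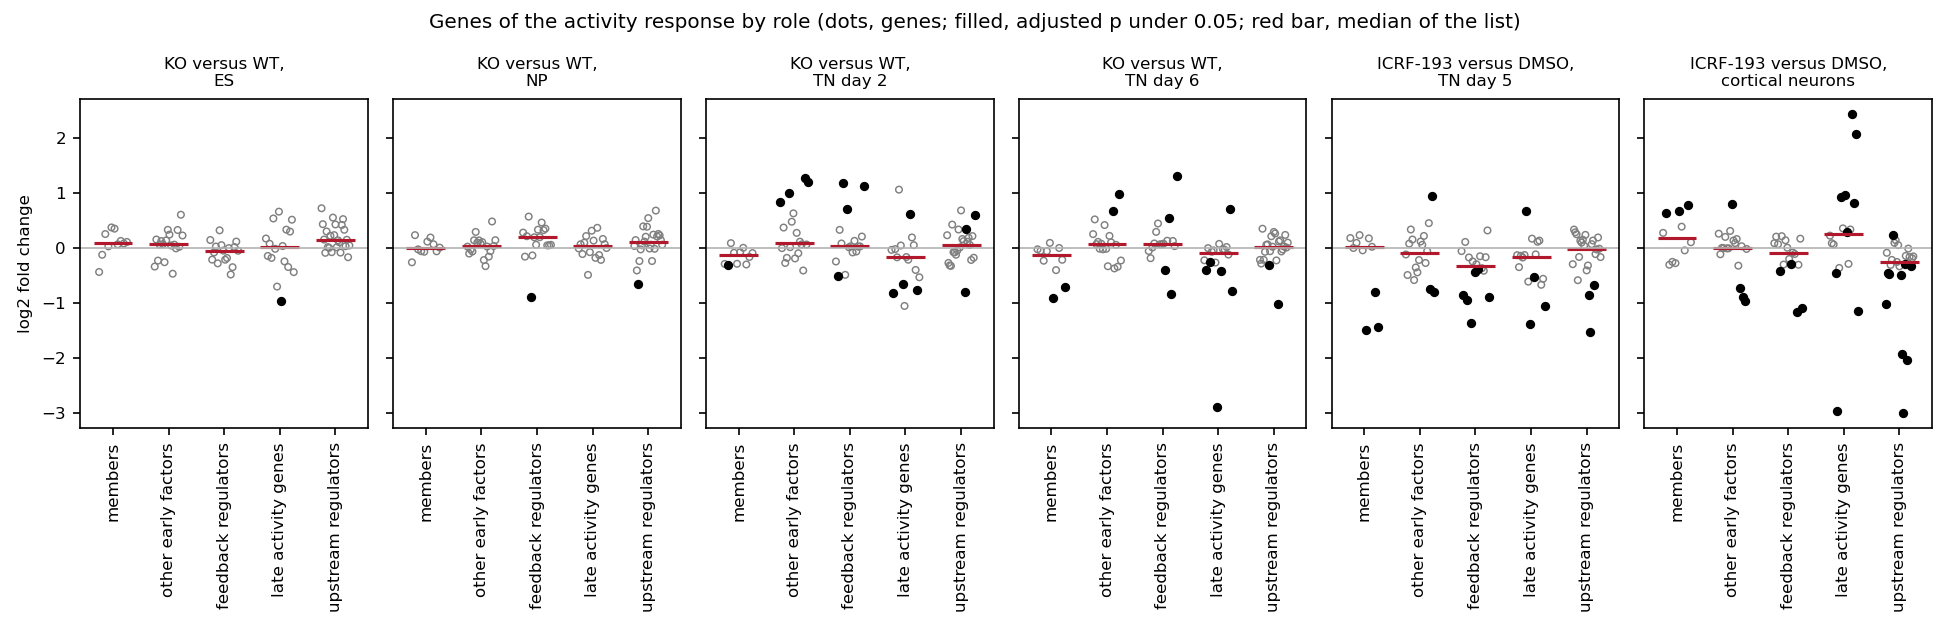
The log2 fold change (vertical axis) of the 10 immediate early genes and of 4 lists (18 other early factors, 16 feedback regulators, 16 late activity genes and 23 upstream regulators) in the 6 comparisons, with filled points for an adjusted p under 0.05 and red bars for list medians. The feedback list lies lowest at TN day 5, with a median of -0.33, and late activity genes spread furthest in cortical neurons, from Inhba at -2.96 to Rasgrp1 at 2.43.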

How the data were processed

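The table deposited by the authors held log2 expression values for 35556 probe sets on 28 arrays, which the submitters' processing notes credit to oligo 1.14.0. How probes were summarized, how background was corrected and which log base was used is not given in the sources used here; base 2 was read from the range, 1.96 to 13.99, on which every fold change rests. No further normalization was applied. Of the probe sets, 21789 had 1 gene symbol, 1621 several and 12146 no entry; for the 999 genes with several probe sets, the one highest on average was kept.

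Limma 3.58.1 (R 4.3.3) fitted 12 group means to the 28 arrays together (16 residual and 4.87 prior degrees of freedom); the procedure was checked on simulated data. There were 10 comparisons between groups and 4 interactions. The number of arrays limits the precision. Of 165 symbols in 15 lists, 159 were measured; at most 3 called genes with the largest change were named per list and comparison. Members and lists were chosen with earlier results of these data known. Alternatives were quantile normalization, median centring, a low-value filter, an intensity trend, array weights, averaged probe sets, a replicate block, a fit to the compared arrays alone and leaving out each array. Replicate numbers were not taken as pairs: deviations of same-numbered arrays correlated at -0.230 in NP cells, 0.379 at TN day 5, and between these elsewhere. No batch is labelled. Promoters of Egr1, Egr3 and Arc were not used here.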

Additional observations from a re-analysis of the deposited data

Results flagged for a closer look

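The effect of ICRF-193 differed by test between cortical neurons and cells at TN day 5 for 4 genes. As cortical minus TN day 5 on the log2 scale, the difference was 2.16 for Fos, 1.57 for Npas4, 1.54 for Nr4a1 and 0.64 for Dusp1. Fos and Npas4 had called effects of opposite sign, Nr4a1 was called at TN day 5 and Dusp1 in cortical neurons.

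The effect of the Top2β knockout differed by test between TN day 6 and TN day 2 for Nr4a1, by -0.61, and between TN day 2 and NP cells for Dusp1, by -0.54 (limma adjusted p = 0.0346). Both calls were lost with quantile normalization and without most single arrays, 8 of the 10 for Nr4a1 and 6 of the 8 for Dusp1. Dusp1 measured 9.35 and 9.13 in wild-type NP cells, against 9.41 and 9.53 in the knockout, so the knockout was higher there, uncalled, and lower at TN day 2.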

How the results depend on the processing

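Of 34 calls on the 10 genes, recomputed under 396 settings, 347 kept direction and threshold, 49 lost the threshold and 0 reversed. For 117 calls on listed genes there were 1498 such pairs, of which 1302 were kept, 196 lost and 0 reversed. The counts of called genes moved as follows. With quantile normalization the count was 0 for the knockout at TN day 2 and for the interactions of TN day 2 with NP and TN day 6 with TN day 2. With median centring it was 5 in cortical neurons with ICRF-193 (Egr1 and Egr3 added, both lower) and 0 for the interaction of TN day 6 with TN day 2; centring shifted the median of all genes in cortical neurons by 0.117. Array weights gave 0 for the knockout at TN day 2, 7 in cortical neurons and 2 for the interaction of TN day 6 with TN day 2. A fit to the compared arrays alone gave 0 at TN day 2 and 7 in cortical neurons.

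The low-value filter, at the median gene, left only Egr3, Nr4a1 and Dusp1 to test; it gave 1 for the knockout at TN day 6, 1 for ICRF-193 at TN day 5, 1 in cortical neurons, 2 from ES to NP, 1 from TN day 2 to TN day 6, 2 between the DMSO controls and 2 for the drug interaction. So 7 of the 10 genes lay below the median gene on average, and their distance from background is not known.

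The replicate block gave 0 at TN day 2 (Dusp1 adjusted p = 0.0866), 0 for the interaction of TN day 2 with NP and 2 for that of TN day 6 with TN day 2, and moved the other counts of the 10 genes by less than 1.5 times. Over all genes it gave 54 calls in ES cells against 70, 110 in NP cells against 125 (121 with crossed numbers, a pairing chosen after seeing the data) and 1586 at TN day 5 against 1772.

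Leaving out 1 array at a time gave 0 to 3 for the knockout in ES cells, 0 to 0 at TN day 2, 5 to 7 from ES to NP, 1 to 2 from TN day 2 to TN day 6, and 0 to 1 for each of the interactions of NP with ES, TN day 2 with NP and TN day 6 with TN day 2. The count stayed at 2 at TN day 6, at 3 in each drug comparison and at 4 for the drug interaction. The highest count in ES cells came without knockout replicate 2, where the knockout group was the 1 array that stood apart in cell type markers. Calls over all genes are given for the replicate block alone, so the other counts have no share beside them. Why settings moved these counts was not tested, except that the filter tested fewer genes.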

Other observations

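The genes most like the mean pattern of the 10 over the 12 group means, among 11079 genes that spanned at least 1 log2 unit, were Atp6v0a4 (Pearson r = 0.945), R3hdml (0.933), Klhl30 (0.931), Mobp (0.928), Adcy7 (0.926), Hspb2 (0.919), E030011O05Rik (0.918) and Coro6 (0.918). The gene most like Junb was Fbxo6 (0.993), most like Arc was 2410137M14Rik (0.980), most like Egr1 was Hmox1 (0.976) and most like Dusp1 was Cited2 (0.968). Npas4 was most like 9330175E14Rik (0.919), Nr4a1 like Klhl30 (0.915), Egr2 like Otud1 (0.902), Fosb like Mir27a (0.871), Egr3 like Fgd3 (0.866) and Fos like Dnah7b (0.776). These values describe 12 group means, several of the same stage, and the genes were picked from many.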
